A study of Mus musculus with 38 samples.

Results

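The liver X receptors (LXRs) and the genes of sterol efflux that they switch on were described here in 4T1 mouse mammary cancer material. The set held 7 genes, chosen by name: the receptor genes Nr1h2 (LXR beta) and Nr1h3 (LXR alpha) and the target genes Abca1, Abcg1, Mylip, Lpcat3 and Apoe. All 7 were present in each of the 4 count tables, among 57126 genes in the tumour and miRNA tables and 55487 in the in vitro and brain tables. Their identifiers were ENSMUSG00000060601 for Nr1h2, ENSMUSG00000002108 for Nr1h3, ENSMUSG00000015243 for Abca1, ENSMUSG00000024030 for Abcg1, ENSMUSG00000038175 for Mylip, ENSMUSG00000004270 for Lpcat3 and ENSMUSG00000002985 for Apoe.

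LXRs are nuclear receptors that bind oxysterols, which are oxidised forms of cholesterol, and act on DNA together with retinoid X receptors. When a cell is loaded with sterol they raise genes that export cholesterol, while the SREBP2 pathway, which makes and takes up cholesterol, is turned down. In brain and in tumours, macrophages, microglia and astrocytes are known as strong producers of apolipoprotein E and of the ABC sterol exporters. The set was drawn up to ask whether a sterol load is sensed by LXR in these samples.

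The study asked how insulin resistance of fat cells acts on this cancer through exosomes, which are small vesicles released by cells. In culture, adipocytes of the mouse line 3T3-L1 that were insulin resistant (IR) or insulin sensitive (IS) gave the exosomes, 4T1 cells received them for 72 hours, and 3 libraries of each kind stand beside 3 of untreated cells. A brain clonogenic assay, in which cells taken from an organ are grown into colonies, gave 5 IR, 5 IS and 5 untreated control libraries, primary tumours gave 5 IR and 4 untreated control libraries, and 4T1 cells titled as treated with miR-145a-3p (3 libraries) or with a scrambled miRNA (2 libraries) made up the last experiment. The labels name 4T1, which is 1 established line, for all 38 libraries, and do not say what the IR and IS groups of brain and tumour received, nor the strain, age or number of mice. In the miRNA experiment the library names run against the titles, since the libraries titled miR-145a-3p carry a scrambled RNA name and those titled scramble carry a miR-145 name, so groups are given there only by title. The exosome and miRNA experiments are labelled in vitro, and cultured cells below are those of both.

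Depth and purity set limits on what could be read. Library totals were 8455412 to 12785398 counts in culture, 8790616 to 13272583 in brain, 17392887 to 21909370 in tumour and 24972592 to 32637552 in the miRNA experiment. Levels are in CPM, counts scaled to a common library size and composition within each table, and a gene was tested where at least 3 libraries of its experiment reached 3 CPM. The summed level of 8 epithelial marker genes of 4T1 cells was 2725 to 3687 CPM in culture, 3583 to 4217 CPM in the miRNA experiment and 3109 to 6647 CPM in tumours, but 121 to 255 CPM in brain libraries. Summed macrophage and microglia markers (12 genes) were 433 to 3825 CPM in brain and 2903 to 4672 CPM in tumours, against 6.18 to 15.3 CPM in both in vitro experiments. The brain libraries carried these 4T1 markers at a low level, although their label is 4T1. In such mixed material, fewer cells of a type and less RNA per cell cannot be told apart. No label names separate cultures or mice behind the biological replicates, and each p-value reflects just the variation among these libraries.

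Promoter sequence is shown for the 2 genes on which the comparisons turned, Abca1 and Apoe. The sequences come from RefSeq (build GRCm38.p6) and cover 250 bases before to 50 bases after the annotated start, which is position 0 here. Abca1, at chr4:53159846-53160145 on the minus strand, carries in capitals an E-box at positions -147 to -142 and, at -67 to -52, a match to the LXR element DR4 on the opposite strand with 3 mismatches. Its GC boxes, at -163 to -158 and -97 to -92, stay in lower case.
Abca1: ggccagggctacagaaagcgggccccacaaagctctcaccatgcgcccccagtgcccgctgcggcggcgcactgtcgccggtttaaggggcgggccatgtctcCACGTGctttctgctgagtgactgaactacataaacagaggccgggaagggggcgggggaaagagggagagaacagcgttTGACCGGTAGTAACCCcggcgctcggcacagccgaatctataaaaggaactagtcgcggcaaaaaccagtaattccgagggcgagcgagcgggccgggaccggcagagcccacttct
Apoe has 3 windows in the table, none of which held a motif searched, and the first of them, at chr7:19699139-19699438 on the minus strand, is shown.
Apoe: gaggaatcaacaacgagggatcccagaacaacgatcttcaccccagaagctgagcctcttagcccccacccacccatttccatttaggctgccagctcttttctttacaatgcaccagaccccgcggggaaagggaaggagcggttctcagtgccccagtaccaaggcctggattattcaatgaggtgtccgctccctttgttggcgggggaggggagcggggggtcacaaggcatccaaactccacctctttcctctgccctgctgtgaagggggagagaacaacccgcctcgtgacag
The motifs were the DR4 element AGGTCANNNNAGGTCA, a direct repeat with 4 spacing bases, the sterol regulatory element TCACNCCAC, the E-box CACGTG and the GC box GGGCGG, all on both strands. With up to 2 mismatches DR4 was found in 3.02% of 32851 promoter windows and in no window of a member. The allowance was then widened to 3 mismatches after that result was seen, which 21.88% of all windows met, and Abca1 was the member that met it. The sterol regulatory element occurred in 1.24% of windows and in none of the members' windows, the E-box in 7.15% and the GC box in 35.66%, the last in Abca1, Mylip and Lpcat3. Windows were found for 6 of the 7 members, all but Abcg1. A match of letters is a description, not a site of binding. The Abca1 window had 62.7% G and C with 26 CpG dinucleotides, and the Apoe windows 57.7%, 51.0% and 52.0% with 10, 12 and 11.

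**Figure D1:**
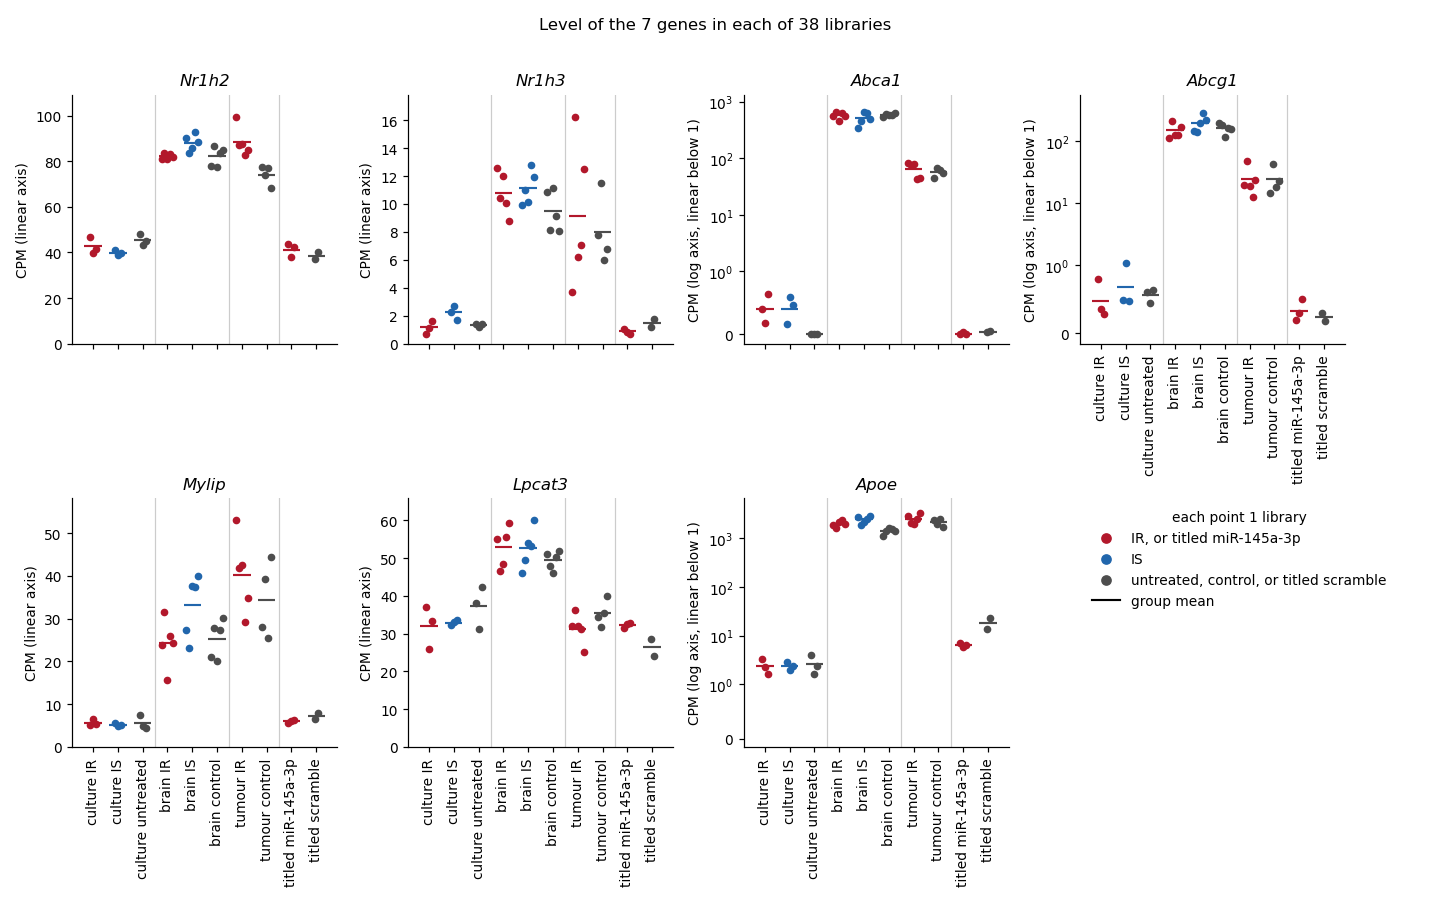
Level of the 7 genes in CPM (y axis, logarithmic above 1 for Abca1, Abcg1 and Apoe, linear for the others) in each of 38 libraries (points) of 10 groups (x axis), with bars at group means. Abca1 lay at or below 0.642 CPM in all cultured cells, at 43.6 to 82.7 CPM in tumours and at 335 to 664 CPM in brain libraries.

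Of the receptors, Nr1h2 was the more abundant transcript in every library, whatever the source. Per kilobase of exon, the level of Nr1h2 was a median of 25.8 times that of Nr1h3 in culture IR libraries, 13.5 times in culture IS libraries and 25.4 times in untreated ones. The same ratio had medians of 6.0, 5.69 and 6.85 in brain IR, IS and control libraries, 8.77 and 7.54 in tumour IR and control libraries, and 33.2 and 20.1 in the libraries titled miR-145a-3p and titled scramble. In cultured 4T1 cells the receptor RNA was mostly Nr1h2, and Nr1h3 did not pass the filter. Nr1h2 ranged over the 10 groups from a mean of 38.6 CPM in the titled scramble libraries to 88.4 CPM in tumour IR libraries, with no overlap between the lowest tumour or brain library and the highest cultured library. Nr1h3 averaged 0.865 to 2.23 CPM in the cultured groups, 8.0 to 9.14 CPM in tumours and 9.48 to 11.2 CPM in brain groups.

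Of the target genes, Abca1, Abcg1, Apoe and Mylip were higher in every brain and tumour library than in every library of cultured cells, while Lpcat3 overlapped. Abca1, which exports cholesterol to lipid-poor apolipoproteins, averaged 0.405 CPM or less in all cultured groups. Abcg1, which exports cholesterol to high density lipoprotein, averaged 0.234 to 0.670 CPM in cultured groups, 24.6 and 24.7 CPM in tumours and 151 to 199 CPM in brain groups. Apoe, the apolipoprotein that carries exported lipid, averaged 2.39 to 18.3 CPM in cultured groups and 1404 to 2491 CPM in brain and tumour groups. Mylip, an E3 ubiquitin ligase that limits the uptake of lipoproteins, averaged 5.15 to 7.22 CPM in cultured groups and 24.2 to 40.3 CPM in the others. Lpcat3, which puts polyunsaturated chains into phospholipids, was the target most alike across sources, at 26.3 to 37.2 CPM in cultured groups, 31.3 and 35.4 CPM in tumours and 49.5 to 53.0 CPM in brain groups. Quantification ran separately per experiment, by RSEM for culture and brain and by salmon for tumour and miRNA, so these levels stand side by side without a test. The share of all genes that lie apart between these sources was not counted. The separation of these targets and of Nr1h2 is therefore not read as particular to them.

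Per kilobase of exon, Apoe was the most abundant member in brain and tumour libraries, with group means of 657 to 1124 CPM per kilobase in brain and 991 and 1165 in tumours. Abca1 followed in brain at 49.6 to 56.6 CPM per kilobase but was only 6.31 and 5.48 in tumour IR and control libraries. In cultured cells Nr1h2 led at 11.5 to 13.5 CPM per kilobase. Lpcat3 followed at 9.81 to 11.4 CPM per kilobase, except in libraries titled scramble, where it was at 8.06 and Apoe at 8.56.

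The culture comparison asked what adipocyte exosomes change in 4T1 cells, and genes of sterol synthesis and uptake fell while no tested member was called. Nr1h2, Mylip and Lpcat3 passed the filter on low values, and 0 of these 3 were called in cells with IR exosomes or in cells with IS exosomes, each against untreated cells, by edgeR's quasi-likelihood test at an adjusted p of 0.05. The background was 13.6% of 10888 tested genes called with IR exosomes and 19.3% with IS exosomes. Before adjustment 0 of the 3 with IR and 1 with IS exosomes had a p under 0.05, as did 26.7% and 32.2% of all tested genes, and DESeq2 called 0 in both.

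Nr1h2 was at 46.8, 39.6 and 41.5 CPM with IR exosomes, 41.0, 38.7 and 39.9 CPM with IS exosomes and 48.0, 43.2 and 45.0 CPM in untreated cells. The IS libraries all lay below the untreated ones, while the IR libraries overlapped them, and IS and untreated groups were apart for 36.8% of all tested genes. The difference was -0.19 ± 0.07 (log2 fold change with its standard error, n = 3 each) for IS exosomes, with an adjusted p of 0.0778, and -0.09 ± 0.07 for IR exosomes, with an adjusted p of 0.436. The 95% interval of the IR difference ran from -0.24 to 0.05.

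Lpcat3 was at 37.0, 25.8 and 33.3 CPM with IR exosomes, 32.2, 33.0 and 33.7 CPM with IS exosomes and 38, 31.3 and 42.4 CPM in untreated cells. Both treated groups overlapped the untreated one, at log2 -0.23 ± 0.12 for IR (adjusted p = 0.230) and -0.18 ± 0.12 for IS (adjusted p = 0.299). Mylip was at 5.11, 6.46 and 5.41 CPM with IR exosomes, 5.44, 4.81 and 5.20 CPM with IS exosomes and 7.48, 4.95 and 4.29 CPM in untreated cells. Its untreated libraries spanned all treated ones, and the differences were 0.03 ± 0.20 and -0.10 ± 0.20 on the log2 scale.

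Abca1 stood out among the 4 members under the filter, because it was seen in every exosome library and in no untreated one. It had 4, 2 and 7 counts in the IR libraries, 2, 5 and 6 counts in the IS libraries and 0 counts in all 3 untreated libraries. Pooled over the group, 13 counts made 0.401 CPM with IR exosomes (95% exact Poisson interval 0.214 to 0.686) and 13 counts made 0.386 CPM with IS exosomes (0.205 to 0.659). The limit that 0 counts allow over the untreated group, taken as 3 counts, was 0.0995 CPM, so at its pooled value Abca1 was at least 4.03-fold higher with IR exosomes and at least 3.88-fold higher with IS exosomes. Taken at the lower ends of those intervals, it was 2.15-fold and 2.06-fold above the same limit. These intervals cover counting error only. When no filter on low values was applied, edgeR gave Abca1 an adjusted p of 0.0178 for IR and 0.0147 for IS exosomes. In that setting 1622 and 2289 of 20179 genes were called. IR and untreated libraries did not overlap for 30.2% of the genes past the filter, nor IS and untreated libraries for 36.8%. That share was not counted among genes under the filter, so the separation is not read as particular to Abca1. Summed macrophage markers were 12.6 to 15.3 CPM in all culture libraries, with Adgre1, C1qa, C1qb and C1qc at 0 in the 3 groups. Of the 12 macrophage markers 8 were at 0 in IR, 4 in IS and 9 in untreated libraries, since Ptprc was seen in both exosome groups and Aif1, Fcgr1, Lyz2 and Trem2 in the IS group, none of them in untreated cells. Summed neutrophil markers (7 genes) were 0.177 to 0.550, 0.235 to 0.543 and 0 to 0.101 CPM in IR, IS and untreated libraries, and fibroblast markers (8 genes) 26.5 to 28.3, 30.7 to 35.4 and 20.0 to 24 CPM. Summed markers of adipocytes (7 genes) were 0.0885 to 0.0982, 0.0812 to 0.311 and 0 to 0.11 CPM in IR, IS and untreated libraries. Adipoq, Cfd, Lep, Cidec and Retn were at 0 in all 9. The part of such cells in the Abca1 counts was not tested.

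The other members under the filter did not share this pattern. Nr1h3 had 7, 13 and 18 counts with IR exosomes, 28, 23 and 22 with IS exosomes and 14, 11 and 16 in untreated cells, which makes 0.687 to 1.65, 1.71 to 2.70 and 1.21 to 1.43 CPM. Its IS libraries lay above the untreated ones, and without the filter the log2 difference was 0.68 with an adjusted p of 0.259. Abcg1 had 15 counts with IR exosomes, 21 with IS exosomes and 17 in untreated cells, and Apoe had 78, 82 and 80. For both, the libraries of the 3 groups overlapped.

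Sterol synthesis genes were mostly lower with exosomes in the same libraries. Of 22 tested genes of sterol synthesis and uptake under SREBP2, 19 fell and 0 rose with IR exosomes (over all tested genes 6.9% fell and 6.67% rose), at a median log2 of -0.75 against 0.0038 over all tested genes. With IS exosomes 19 fell and 0 rose (9.32% and 9.97% of all), at a median of -0.98 against 0.0012. Insig1, which retains the SREBP complex in the endoplasmic reticulum, was at 45.9 ± 2.94 CPM with IR exosomes, 37.0 ± 1.36 CPM with IS exosomes and 122 ± 9.38 CPM in untreated cells (SD, n = 3 each). That was 2.67-fold and 3.30-fold lower. The adjusted p values were 1.96e-10 and 1.35e-11. Srebf2, the transcription factor of the pathway, fell by 0.41 and 0.64 on the log2 scale. Both comparisons use the same 3 untreated libraries. Epithelial markers of 4T1 fell too, 6 of 8 with IR and 7 of 8 with IS exosomes, with sums of 3199 to 3273, 2725 to 2787 and 3675 to 3687 CPM in IR, IS and untreated libraries, and their part in these results was not tested.

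Other known LXR targets were mostly under the filter. Of 17 listed, 5 were tested, and with IR exosomes 1 rose and 3 fell, while with IS exosomes 0 rose and 3 fell. Over all tested genes 6.67% rose and 6.9% fell with IR exosomes, and 9.97% rose and 9.32% fell with IS exosomes. The count of rises among 5 genes is therefore not read as a result about LXR targets. The falls were Scd1, a fatty acid desaturase, Fasn, the fatty acid synthase, and Srebf1, the lipogenic SREBP, which was at 129 ± 4.78 CPM with IR exosomes, 121 ± 0.967 CPM with IS exosomes and 165 ± 5.38 CPM in untreated cells. Scd1 was 2.20-fold lower with IR exosomes and 2.46-fold lower with IS exosomes. All 3 are also genes that SREBPs drive. The rise was Arl4c, a small GTPase, at 384 ± 11.7 CPM with IR exosomes and 343 ± 14.6 CPM in untreated cells (log2 0.16 ± 0.04, adjusted p = 0.0142), and leaving out untreated library 1 (0.0642) or 2 (0.0726) ended the call.

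Of 14 tested partners and coregulators of LXR, 2 rose with IR exosomes and 0 fell, where 6.67% of all tested genes rose and 6.9% fell. Rxra, the retinoid X receptor alpha that pairs with LXR, was at 69.1 ± 2.02 CPM against 59.9 ± 2.13 CPM in untreated cells, and Tbl1xr1, a corepressor subunit, at 73.4 ± 2.63 CPM against 62.7 ± 4.15 CPM. The Rxra call (adjusted p = 0.0145) was lost without IR library 2 (0.0515) or untreated library 2 (0.0525) or 3 (0.0577), and the Tbl1xr1 call (0.0105) without untreated library 1 (0.0725). With IS exosomes 0 rose and 1, Tbl1x, fell, beside 9.97% and 9.32% of all tested genes. The fall of Tbl1x was 0.13 on the log2 scale (adjusted p = 0.0403), a call lost without IS library 1, 2 or 3 or untreated library 2 or 3 (0.0855 to 0.132).

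Genes that make or remove oxysterols moved in both directions. With IR exosomes 1 of 6 rose and 3 fell, beside 6.67% and 6.9% of all tested genes. With IS exosomes 1 rose and 3 fell, beside 9.97% and 9.32%. Of the IR falls that of Ebp, a sterol isomerase, at 27.0 ± 1.23 CPM against 32.0 ± 1.71 CPM in untreated cells (adjusted p = 0.0448), was lost with DESeq2 (0.116), without the filter (0.0635) and without IR library 1 or 2 or untreated library 1, 2 or 3 (0.0540 to 0.175). Dhcr7, an enzyme of the last steps of cholesterol synthesis, was at 40.9 ± 2.98 CPM with IR exosomes, 40.0 ± 0.517 CPM with IS exosomes and 52.9 ± 0.659 CPM in untreated cells. The rises were Cyp39a1, an oxysterol hydroxylase, with IR exosomes (5.27 ± 0.810 CPM against 2.46 ± 0.83 CPM, adjusted p = 0.0077) and Hsd3b7, a bile acid enzyme, with IS exosomes (26.4 ± 1.96 CPM against 18.9 ± 1.18 CPM, adjusted p = 0.00175).

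Sterol transport and storage genes moved both ways. With IR exosomes 3 of 17 rose and 2 fell, beside 6.67% and 6.9% of all tested genes. With IS exosomes 8 rose and 1 fell, beside 9.97% and 9.32%. Plin2, the coat protein of lipid droplets, was at 169 ± 5.08 CPM with IR exosomes, 159 ± 5.43 CPM with IS exosomes and 122 ± 4.18 CPM in untreated cells. Npc2, which moves cholesterol out of lysosomes, was 1.27-fold and 1.32-fold higher, and Nceh1, which frees cholesterol from stored esters, 1.31-fold and 1.39-fold higher.

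**Figure D2:**
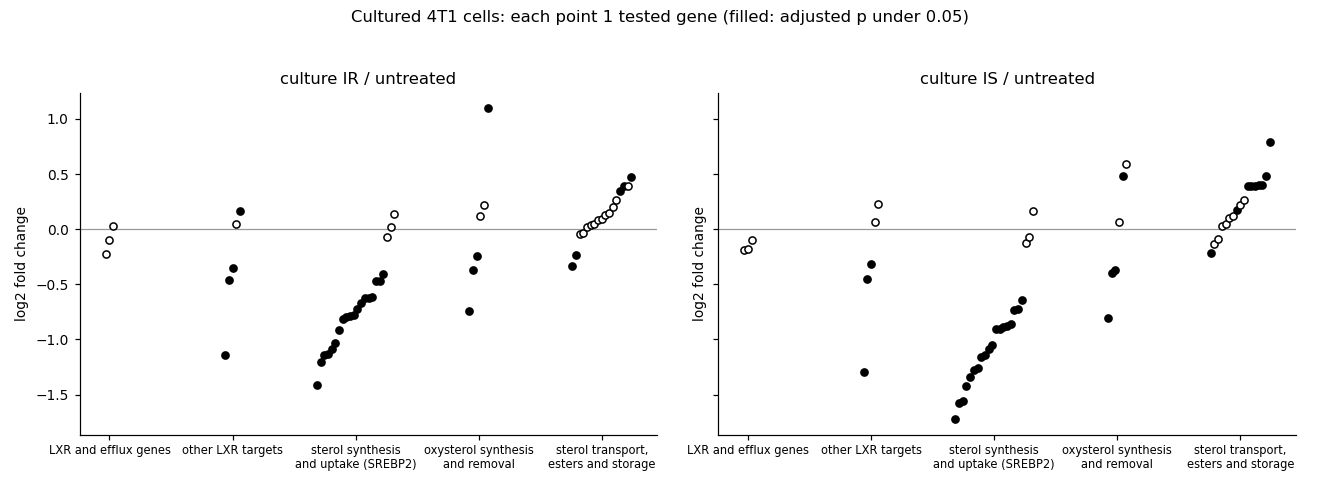
Log2 fold change (y axis) of each tested gene of 5 lists (x axis) in cultured 4T1 cells with IR exosomes (left) or IS exosomes (right) against untreated cells. Filled points have an adjusted p under 0.05: 19 of 22 sterol synthesis and uptake genes were lower in each panel, and 0 of the 3 tested LXR and efflux genes was called.

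Between IR and IS exosomes no tested member was called, while many sterol synthesis genes differed. Of the 3 tested members 0 were called by edgeR's test (6.27% of all tested genes were), 0 had an unadjusted p under 0.05 (22.7% of all) and DESeq2 called 0. The log2 differences of IR from IS cells were 0.09 for Nr1h2 (95% interval -0.06 to 0.24), 0.13 for Mylip (-0.30 to 0.56) and -0.04 for Lpcat3 (-0.29 to 0.20). Of the sterol synthesis and uptake genes 12 of 22 were higher with IR than with IS exosomes and 0 lower, at a median log2 of 0.25 (2.82% of all genes were higher and 3.45% lower). Cyp51, a sterol demethylase, reached 60.8 ± 1.62 CPM after IR exosomes against 43.7 ± 2.63 CPM after IS exosomes (adjusted p = 0.000192). The difference in Insig1 (log2 0.31, adjusted p = 0.017) was lost without IR library 2 or IS library 1 or 2 (at most 0.0603). Of 5 tested other LXR targets 1, Fasn, was lower with IR than with IS exosomes. That call was lost without IR library 1 or 2 or IS library 1, 2 or 3 (adjusted p of edgeR's test at most 0.0997).

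In the brain clonogenic assay Apoe was higher in both the IR and the IS libraries than in the control libraries, and the other 6 members were not called. All 7 members passed the filter. In each comparison 1 of 7 members was called, beside a background of 11.7% of 12924 genes in IR libraries (6.45% higher, 5.27% lower) and 6.46% in IS libraries (3.37% higher, 3.1% lower), so the members' share is near that of all genes.

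Apoe was at 1844, 1587, 2100, 2341 and 1913 CPM in the IR libraries, 2723, 1828, 2161, 2453 and 2857 CPM in the IS libraries and 1102, 1387, 1587, 1540 and 1405 CPM in the control libraries. Every IS library lay above every control library, a separation that 7.81% of all genes showed in 1 direction or the other, while the lowest IR library and the highest control library were level at 1587 CPM. The group means were 1957 ± 283, 2404 ± 418 and 1404 ± 189 CPM (SD, n = 5 each). The rise was 1.39-fold in IR libraries (log2 0.48 ± 0.13, adjusted p = 0.0268) and 1.71-fold in IS libraries (log2 0.78 ± 0.13, adjusted p = 0.0023). The IR call was lost without control library 1 (adjusted p = 0.0674), 2 (0.0576) or 5 (0.0544) or IR library 3 (0.0604) or 4 (0.0527), whereas the IS call was kept without any single library (at most 0.00908). The Apoe difference between IR and IS libraries missed the threshold of the same test (log2 -0.30 ± 0.13, 95% interval -0.57 to -0.02, adjusted p = 0.24).

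Markers of other cell types moved with these groups. Macrophage and microglia markers were lower in IR libraries for 6 of 8 tested genes (12 listed), with a summed level of 433 to 2049 CPM in IR, 914 to 3825 CPM in IS and 1791 to 3471 CPM in control libraries, and 0 of 8 were called in IS libraries. The calls of Mrc1, Ptprc and Trem2 were lost without some single libraries (adjusted p at most 0.0871). Csf1r, the growth factor receptor of macrophages, was at 19.4 ± 6.08 CPM in IR and 58.8 ± 16.9 CPM in control libraries. Endothelial markers were higher for 8 of 8 genes in IR and 4 of 8 in IS libraries, with sums of 472 to 970, 187 to 757 and 138 to 188 CPM in IR, IS and control libraries. Astrocyte markers were higher for 2 of 8 genes in IR and 3 of 8 in IS libraries, with sums of 138 to 248, 199 to 319 and 159 to 200 CPM. None was called lower, but their median log2 against control was -0.06 in IR and 0.48 in IS libraries. Some uncalled astrocyte markers were thus lower in IR libraries. Gja1, a gap junction gene of astrocytes, was at 63.4 ± 7.07 CPM in IR, 60.0 ± 5.82 CPM in IS and 35.7 ± 2.07 CPM in control libraries. No defining marker of these 3 lists was at 0 in any brain group. The part of these cell types in the Apoe result was not tested.

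**Figure D3:**
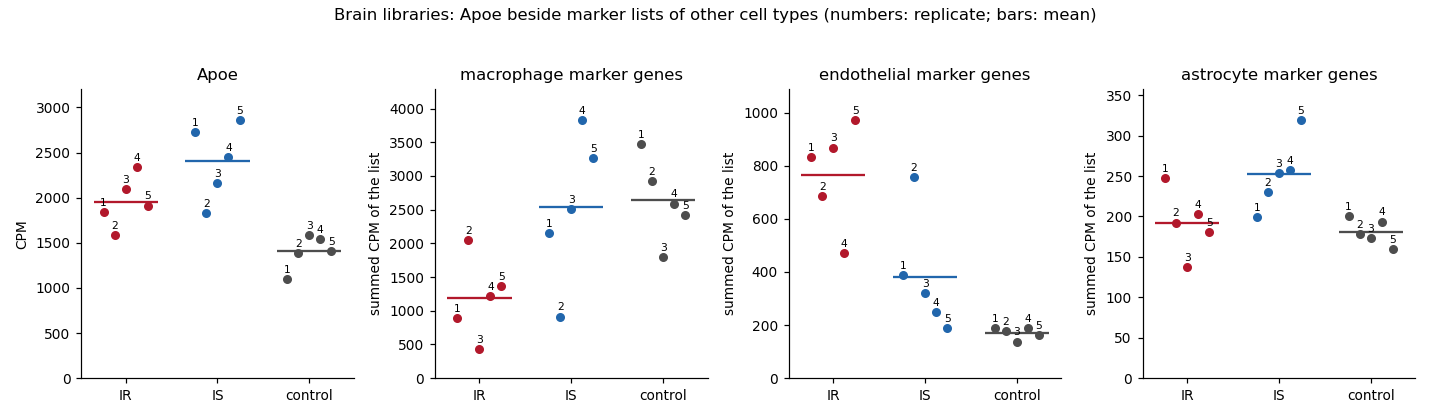
Apoe (CPM, left) and the summed CPM of macrophage and microglia, endothelial and astrocyte marker lists in each brain library (points numbered by replicate, bars at group means). Apoe ran from 1587 to 2341 CPM in IR, 1828 to 2857 CPM in IS and 1102 to 1587 CPM in control libraries, and macrophage markers were lowest in IR library 3 at 433 CPM.

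Abca1 was at 554, 664, 445, 626 and 551 CPM in IR libraries, 335, 456, 662, 634 and 484 CPM in IS libraries and 533, 601, 576, 589 and 636 CPM in control libraries. The groups overlapped throughout, and the IS libraries were the most spread. The log2 differences from control were -0.05 (95% interval -0.36 to 0.27) in IR and -0.19 (-0.51 to 0.12) in IS libraries, with adjusted p values of 0.884 and 0.5.

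Abcg1 was at 111, 217, 128, 128 and 168 CPM in IR libraries, 145, 141, 202, 286 and 220 CPM in IS libraries and 197, 185, 118, 163 and 157 CPM in control libraries. It was highest in IS library 4, which also had the highest summed macrophage and microglia markers, but lowest in IR library 1 and not in IR library 3, where the markers were lowest. The 3 groups overlapped (adjusted p = 0.755 for IR and 0.474 for IS). Mylip was at 23.8, 31.4, 15.6, 25.8 and 24.3 CPM in IR libraries, 27.4, 23.1, 37.6, 37.3 and 40.0 CPM in IS libraries and 20.9, 27.8, 20.0, 27.4 and 30.1 CPM in control libraries. Its lowest value was in IR library 3, where macrophage markers were lowest, but its highest was in IS library 5 and not in IS library 4. The log2 difference of IS from control was 0.39 ± 0.18 with an adjusted p of 0.220. The part of macrophages and microglia in the Abcg1 and Mylip levels was not tested.

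Nr1h2 varied little in brain, at 81.0 to 83.5 CPM in IR, 83.5 to 93.0 CPM in IS and 77.5 to 86.8 CPM in control libraries. The IR difference had a 95% interval of -0.11 to 0.12 on the log2 scale. Nr1h3 was at 8.77 to 12.6, 9.94 to 12.8 and 8.10 to 11.2 CPM in the same order, and Lpcat3 at 46.6 to 59.2, 46.1 to 60.0 and 46.1 to 52.0 CPM. For both genes all groups overlapped, with adjusted p values of 0.335 to 0.594 in the comparisons with control.

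Between IR and IS brain libraries no member passed edgeR's test, where 0 of 7 were called against 0.0464% of all genes. Before adjustment 2 had a p under 0.05 (18.1% of all genes), Mylip (log2 -0.45 ± 0.18, adjusted p = 0.193) and Apoe, both lower in IR libraries, and DESeq2 called 0.

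Sterol synthesis genes were hardly called in the brain libraries. Of 22 tested synthesis and uptake genes, 1 rose in IR libraries and 0 fell, at a median log2 of -0.02 against 0.0018 over all genes, and in IS libraries 0 were called (median -0.06 against -0.0014). Insig1 was at 25.8 ± 2.18, 27.3 ± 2.27 and 25.2 ± 4.4 CPM in IR, IS and control libraries, Srebf1 at 101 ± 7.89, 107 ± 2.06 and 96.3 ± 6.23 CPM, and Srebf2 at 77.0 ± 9.35, 67.9 ± 5.72 and 73.3 ± 2.47 CPM. None of these 3 was called in any brain comparison. The 1 rise was Stard4, which carries cholesterol through the cytosol, at 12.5 ± 3.13 CPM in IR and 8.29 ± 1.35 CPM in control libraries (adjusted p = 0.0415), a call lost without control library 2, 3, 4 or 5 or IR library 1, 3 or 5 (at most 0.127).

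Among the 8 tested other LXR targets, 1 fell in IR libraries and 0 were called in IS libraries. Over all tested genes 5.27% fell in IR libraries and 6.46% were called in IS libraries. Lpl, lipoprotein lipase, was at 117 ± 44.4 CPM in IR and 292 ± 89.2 CPM in control libraries (log2 -1.32 ± 0.37, adjusted p = 0.0295). The call was lost without control library 1, 2 or 4 or IR library 1, 2, 3 or 5 (0.0505 to 0.0800).

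Among 20 tested transport and storage genes, Plin2 was at 1501 ± 167 CPM in IR, 1811 ± 198 CPM in IS and 2288 ± 160 CPM in control libraries. Its fall of 0.61 on the log2 scale in IR libraries (adjusted p = 0.000925) was kept without each library in turn. Lrp1, a receptor that takes up particles carrying apolipoprotein E, was at 1807 ± 189 CPM in IR, 1559 ± 329 CPM in IS and 2453 ± 136 CPM in control libraries, and its fall in IS libraries (adjusted p = 0.00448) was kept in the same way. In all, 2 of the 20 rose and 2 fell in IR libraries, beside 6.45% and 5.27% of all tested genes. In IS libraries 0 rose and 3 fell, beside 3.37% and 3.1%. Of the IR calls that of Plin2 alone held without each library. The IS falls of Plin2 and of Abca2, an ABC transporter, were each lost without control library 1, 2, 3 or 5 or IS library 1 or 5 (at most 0.0961), so that 1 of the 3 was left without control library 1. The Plin2 call was also lost without control library 4 (0.0636), without IS library 2 (0.107) and without the filter (0.0569). With the replicate number as a block the Plin2 (0.0855) and Abca2 (0.0668) calls were lost as well. Of 8 oxysterol genes 1 fell in IR libraries, Hsd3b7, at 34.9 ± 4.21 CPM against 44.9 ± 2.85 CPM in control libraries (adjusted p = 0.0331), a call lost without control library 1, 3, 4 or 5 or IR library 1, 3 or 5 (at most 0.0898), and 0 were called in IS libraries.

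Across the 15 brain libraries the genes most like each member in log2 CPM were named by Pearson's r, as a description over libraries that share groups and cell mixtures. Apoe was most like Phyh, an enzyme of peroxisomal fatty acid breakdown (r = 0.946), Pdha1, a subunit of pyruvate dehydrogenase (0.932), and Slc29a4 (0.927). Abcg1 was most like Abcb4 (0.909), Cxcr4 (0.908), a chemokine receptor of immune cells, and Prkcd (0.904), and Mylip most like Cerk (0.898), Ralb (0.889) and Ptpn1 (0.854). Abca1 was most like Secisbp2l (0.878), Maml2 (0.875) and Smcr8 (0.83), and Nr1h2 most like Btbd6 (0.913), Stard3 (0.854) and Jade2 (0.853). Nr1h3 and Lpcat3 had weaker neighbours, led by Mlst8 (0.784) and Mak16 (0.810). In the 9 culture libraries the leading neighbours were Zfp653 for Nr1h2 (0.964), Septin2 for Mylip (0.921) and Eef2 for Lpcat3 (0.957).

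In primary tumours 0 of 7 members were called between IR and control tumours, as were 0% of 12962 tested genes by edgeR's test. Before adjustment 1 member had a p under 0.05, against 7.65% of all genes, and DESeq2 called 0 members and 124 genes. That member was Nr1h2, at 99.3, 87.2, 87.5, 82.9 and 85.0 CPM in IR tumours and 77.4, 73.9, 77.0 and 68.4 CPM in control tumours. The groups did not overlap, as was so for 2.41% of tested genes, and the log2 difference was 0.25 ± 0.09 (n = 5 and 4, adjusted p = 0.582). Summed fibroblast markers (8 genes) were 6544 to 12648 CPM in IR and 3776 to 7002 CPM in control tumours, at a median log2 of 0.65, and pericyte and smooth muscle markers (7 genes) 248 to 1563 and 196 to 363 CPM, at 0.70, against 0.0065 over all genes. None of these markers was called, and their part in the Nr1h2 difference was not tested.

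Nr1h3 was at 3.68, 16.2, 6.20, 7.09 and 12.5 CPM in IR tumours and 7.75, 11.5, 5.96 and 6.75 CPM in control tumours. Abcg1 was at 19.9, 48.4, 18.8, 12.8 and 23.9 CPM in IR tumours and 14.7, 42.8, 18.3 and 22.7 CPM in control tumours. Both genes were highest in library 2 of each group. Those 2 libraries also had by far the highest sums of 7 lymphocyte markers, 443 CPM in IR library 2 and 375 CPM in control library 2, against 90.2 CPM in IR library 5 and 3.71 to 10.1 CPM in the other 6. The group differences were 0.19 ± 0.41 for Nr1h3 and 0.0046 ± 0.41 for Abcg1 on the log2 scale, and without both libraries they were 0.12 and 0.02 (adjusted p = 0.967 and 0.991). Whether lymphocytes have a part in these levels was not tested.

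**Figure D4:**
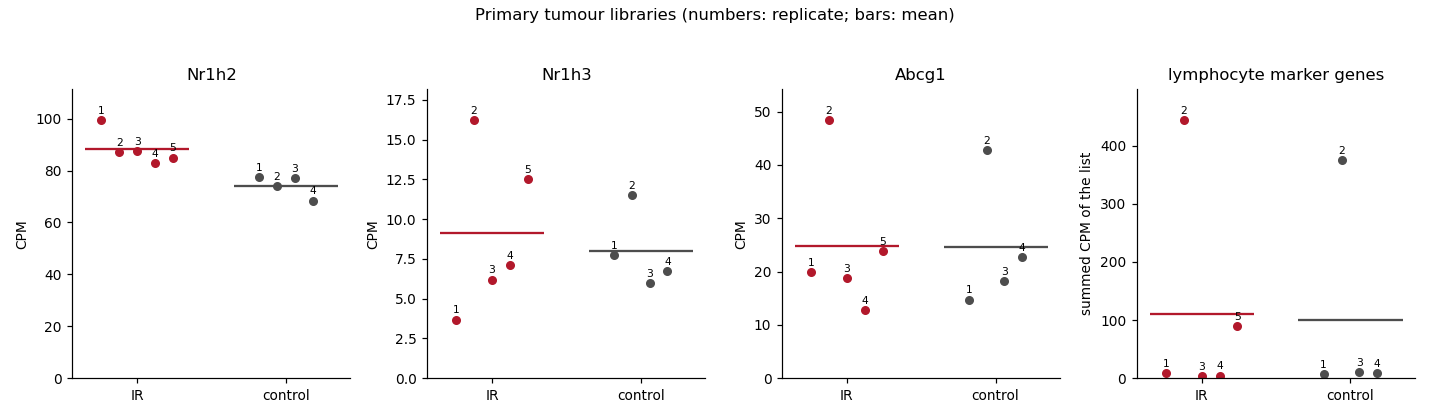
Nr1h2, Nr1h3 and Abcg1 (CPM) and the summed CPM of 7 lymphocyte marker genes in each tumour library (points numbered by replicate, bars at group means) of the IR group (left) and the control group (right). Abcg1 was highest at 48.4 CPM in IR library 2 and 42.8 CPM in control library 2, where the lymphocyte sums were 443 and 375 CPM.

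Apoe was at 2790, 2012, 1932, 2401 and 3322 CPM in IR tumours and 2307, 1975, 2487 and 1707 CPM in control tumours. The 2 highest tumours were IR tumours, but the groups overlapped (log2 0.23 ± 0.18, adjusted p = 0.878). Abca1 was at 82.7, 76.8, 79.1, 43.6 and 44.9 CPM in IR tumours and 44.7, 67.0, 61.8 and 53.6 CPM in control tumours, with the IR tumours both above and below the control ones (0.20 ± 0.23). Mylip was at 29.3 to 52.9 CPM in IR and 25.5 to 44.3 CPM in control tumours, and Lpcat3 at 25.2 to 36.2 and 31.9 to 40.0 CPM, with log2 differences of 0.23 ± 0.21 and -0.18 ± 0.12.

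Of the related lists, 0 genes were called in tumours, since none was called at all. The 23 sterol synthesis and uptake genes had a median log2 of -0.13 against 0.0065 over all genes. Insig1 was at 62.0 ± 5.82 CPM in IR and 58.7 ± 6.80 CPM in control tumours, Srebf1 at 134 ± 22.7 and 148 ± 10.6 CPM, and Srebf2 at 155 ± 30.3 and 160 ± 13 CPM. Intervals here were wide, and for Abcg1 the 95% interval of the log2 difference ran from -0.90 to 0.91.

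In the miRNA experiment Apoe was lower and Lpcat3 higher in the libraries titled miR-145a-3p than in those titled scramble. Of the 7 members 4 passed the filter, and 1 rose and 1 fell, beside a background of 56.7% of 10751 genes called (28% higher, 28.7% lower). The direction of each difference rests on the titles, which the library names contradict.

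Apoe was at 7.05, 5.91 and 6.30 CPM in the libraries titled miR-145a-3p and 13.9 and 22.7 CPM in those titled scramble. All 3 lay below both of the others, as groups did not overlap for 73% of tested genes. The level was 2.85-fold lower in the libraries titled miR-145a-3p (log2 -1.51 ± 0.20, n = 3 and 2, adjusted p = 0.000649), and the call was kept without each library in turn (at most 0.00605). Macrophage markers were lower too for the 2 of 12 that were tested, Cd68 at 2.81 ± 0.318 CPM in libraries titled miR-145a-3p and 6.72 ± 0.262 CPM in those titled scramble and Csf1r at 3.19 ± 0.456 and 4.75 ± 0.831 CPM, with list sums of 6.18 to 7.51 and 12.7 to 14.2 CPM. The defining markers Adgre1, C1qa, C1qb, C1qc, Lyz2 and Trem2 were at 0 in all 5 libraries. The Csf1r call was lost without library 2 or 3 titled miR-145a-3p or library 1 titled scramble (adjusted p at most 0.14), and the part of such cells in the Apoe result was not tested.

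Lpcat3 was at 31.5, 32.6 and 32.7 CPM in the libraries titled miR-145a-3p and 28.6 and 24.1 CPM in those titled scramble. The rise was 1.22-fold (log2 0.29 ± 0.09, adjusted p = 0.0204), and its call was lost without library 2 (0.0684) or 3 (0.0663) titled miR-145a-3p or library 2 titled scramble (0.0993). Mylip was at 5.61, 6.03 and 6.15 CPM in libraries titled miR-145a-3p and 6.53 and 7.92 CPM in those titled scramble. Its groups did not overlap, but the log2 difference of -0.28 ± 0.15 had an adjusted p of 0.139, or 0.0453 without library 1 titled scramble. Nr1h2 was at 43.7, 37.9 and 42.2 CPM in libraries titled miR-145a-3p and 37.1 and 40.0 CPM in those titled scramble, with overlap and an adjusted p of 0.327.

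Of the 3 members under the filter, Abca1 was near the limit of detection. Nr1h3 had 74 counts over the libraries titled miR-145a-3p and 73 over those titled scramble, and was at 1.05, 0.857 and 0.692 CPM in libraries titled miR-145a-3p and 1.20 and 1.77 CPM in those titled scramble (adjusted p = 0.223 without the filter). Abca1 had 1 count over the 3 libraries titled miR-145a-3p and 2 counts over the pair titled scramble, and Abcg1 had 28 and 12.

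Sterol synthesis genes were higher in the libraries titled miR-145a-3p, with 21 of 22 tested genes up and 0 down (median log2 0.84 against -0.0142 over all genes). Over all tested genes 28% were called higher and 28.7% lower. Insig1 was at 108 ± 8.50 CPM in libraries titled miR-145a-3p and 55.0 ± 3.79 CPM in those titled scramble, or 1.96-fold higher. Srebf2 was 1.87-fold higher. Of 5 other LXR targets tested, 4 rose and 0 fell, among them Scd1 (3.31-fold), Fasn (1.91-fold), Arl4c (1.44-fold) and Srebf1 (1.18-fold), the last of which lost its call without library 3 titled miR-145a-3p (adjusted p = 0.0671). Scd1, Fasn and Srebf1 are also genes that SREBPs drive. Of 14 partners and coregulators 4 rose and 2 fell, with Rxra 1.62-fold higher (adjusted p = 0.000219) and Crebbp, a coactivator, 1.42-fold lower (0.00044). The 4 rises are near the share of all genes and the 2 falls under it, so these counts are not read as a result about partners and coregulators. Of 5 oxysterol genes 3 rose and 1 fell, the fall being Hsd3b7 (1.87-fold). Of 17 transport and storage genes 2 rose and 7 fell, with Scarb1, the receptor for high density lipoprotein, 1.52-fold higher and Abca7 and Gramd1b 1.95-fold and 3.33-fold lower.

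**Figure D5:**
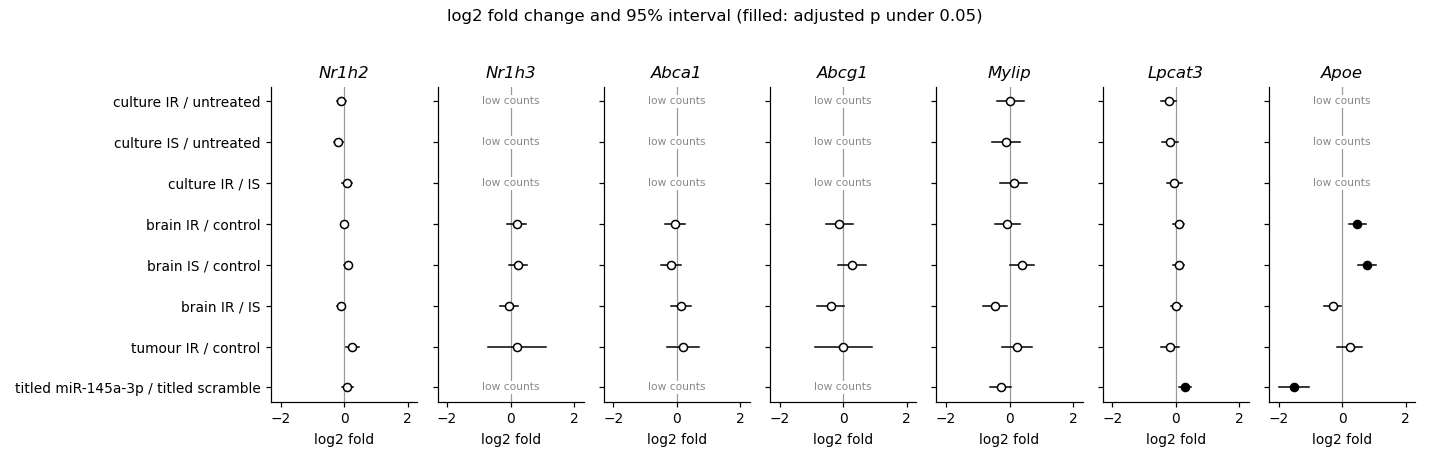
Log2 fold change (x axis) with its 95% interval for the 7 genes (panels) in 8 comparisons (rows), the group named first over the group named second. Filled points have an adjusted p under 0.05, which was so for Apoe in brain IR (0.48) and IS (0.78) libraries against control and in libraries titled miR-145a-3p (-1.51), and for Lpcat3 in the last (0.29). Genes under the filter are marked as low counts.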

How the data were processed

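RNA of 38 libraries was sequenced after a stranded mRNA kit, per the labels' protocols. The values used are expected counts per gene that the authors deposited in a table for each experiment, from RSEM for culture and brain and from salmon for tumour and miRNA, as the names of the deposited tables give it. Per the submitters' processing notes the tools were Trimmomatic, STAR, featureCounts and DESeq2, with no versions, and the builds GRCm38 (mm10) and GRCm39 (mm39). No source used here says which build a table rests on. The culture table has 3 further columns that fit no sample, and they were left out. The IR columns of culture and brain were placed by group, and a library number there is that of the column. Identifiers were named through the tumour table (52139 of 55487 genes of the culture table). The title and library name of tumour control 4 carry different numbers.

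Counts were rounded, kept for genes with 3 CPM in at least 3 libraries, normalised by TMM and tested with edgeR 4.0.16 (quasi-likelihood, R 4.3.3). Each experiment was fitted whole, with no covariate. Benjamini-Hochberg adjustment ran over every tested gene, and calls were made at 0.05. The standard error was the log2 fold change divided by the square root of F. CPM use the summed counts of tested genes times the scaling factor. Exon lengths are merged exons of GENCODE M21. Alternatives were the size factors of DESeq2 in edgeR, DESeq2 1.42.0, no filter, a replicate block and leaving out each library, and, added after seeing the data, leaving out both lymphocyte-rich tumour libraries. The fits were tested on simulated data.

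The members and gene lists were chosen with earlier results of these data known. Named besides the 7 members were Insig1, Srebf1 and Srebf2 and, of each list and comparison, up to 5 called genes with the smallest adjusted p, and the 3 genes with the highest Pearson's r to each member among those with a mean of 10 CPM. Some genes that this rule names are not reported here.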

Additional observations from a re-analysis of the deposited data

Results flagged for a closer look

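Of 35 groups of 4 or 5 libraries checked, 1 held a library far from the others, and chance gives about 5% of such groups. Nr1h2 in tumour IR library 1 was at 99.3 CPM, against 82.9 to 87.5 CPM in the other 4 IR tumours.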

How the results depend on the processing

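Of 498 values of members under alternatives, 487 stayed on their side of the threshold, 9 lost the call and 2 gained it. Where the main or the alternative fit gave a call, 0 changed sign. Of 1689 for the other named genes 1508 stayed on their side, 180 lost the call and 1 gained it, again with 0 such changes of sign. Differences without a call could change sign. Mylip in culture with IR exosomes ran from -0.14 to 0.30 on the log2 scale over the alternatives. Srebf2 in tumours ran from -0.18 to 0.0019 when 1 library was left out. Without a filter on low counts, 1 member (Abca1) was called with IR and 1 with IS exosomes in culture, beside 1622 and 2289 of 20179 genes. The same setting called 3 members in the miRNA experiment (Nr1h2 at adjusted p = 0.0381), beside 7999 of 25492 genes. Between brain IR and IS libraries it called 334 of 26342 genes. That setting also moved the median of all genes in the miRNA comparison to -0.14 on the log2 scale from -0.01. DESeq2 called 604 genes between brain IR and IS libraries and 124 in tumours, against 6 and 0 by edgeR.

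Leaving out 1 library at a time gave 295 to 871 genes between culture IR and IS exosomes, 836 to 1803 genes and 0 to 1 members in brain IR libraries, and 465 to 872 genes in brain IS libraries, both against control. It gave 0 to 1139 genes between brain IR and IS libraries, of which 1139 came without IS library 2, 0 to 1 genes in tumours and 1 to 3 members in the miRNA experiment. Without both lymphocyte-rich tumour libraries 0 members and 0 genes were called. A library that stood alone in its group was assumed to vary like the others. The cause of these changes was not tested.

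With the replicate number as a block, 513 genes were called in brain IS libraries against control, 1 in tumours, and 3990 genes and 1 member in the miRNA experiment (Lpcat3 lost its call at adjusted p = 0.0928). Deviations of libraries with the same number correlated at -0.208 to 0.077 in culture, -0.0368 to 0.104 in brain, 0.081 to 0.758 in tumours and -0.136 to -0.0609 in the miRNA experiment. With different numbers the ranges were -0.11 to 0.203, -0.132 to 0.1185, -0.416 to 0.313 and -0.0705 to 0.136. In tumours the medians were 0.169 and -0.0273, which does not settle pairing there. The 2 libraries titled scramble deviate as mirror images, so the miRNA values cannot tell. No label names pairs, and the numbers are not taken as such. No paired analysis was possible for the IR comparisons of culture and brain because their columns are tied to the group and not to a numbered sample, and the IR libraries were left out of the block for the other comparison there.

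Depth limits Abca1, Abcg1 and Nr1h3 in cultured cells, where a library held 0 to 40 counts.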
